A study of Rattus norvegicus with 29 samples.

Results

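Gene expression in blood mononuclear cells was compared between rats eating a cafeteria diet and rats eating standard chow, both with food available at all times. The comparison took the 9 arrays of freely fed rats out of 29 arrays in the series, 5 titled for the cafeteria diet and 4 for the control diet, and every probe that passed a filter on dim signal. All animals were male Wistar rats, an outbred strain, at 6 months of age. Control rats had standard chow alone, and cafeteria rats had chow with a fat-rich, energy-dense cafeteria diet beside it for 4 months, and the series text calls them obese. Rats of the same diets that had fasted for 14 h, or had fasted and then eaten freely for 6 h (refed), made up the other 4 groups of 5 rats each, and 1 control sample was left out by the submitters because it gave little RNA. Blood came from the saphenous vein, and mononuclear cells were taken from a Ficoll gradient, so each value is a mixture of T cells, B cells, natural killer (NK) cells and monocytes with the platelets and red cell precursors that follow them. In such bulk RNA, fewer cells of a type and less RNA per cell cannot be told apart.

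Long-chain fatty acids enter mitochondria as carnitine esters. Carnitine palmitoyltransferase at the outer membrane sets the rate of this step, a carnitine carrier brings the ester across the inner membrane, and a second transferase inside releases the acyl-CoA for beta-oxidation. PPAR alpha, a nuclear receptor that binds fatty acids, raises the transcription of many of these genes in liver, and blood cells are studied as an accessible readout of such nutrient responses.

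Each value below is a log2 ratio of the rat's own RNA (Cy5) over a reference pooled from all groups (Cy3), so 0 means a level equal to the pool, and a log2 difference is the mean of cafeteria fed minus the mean of control fed rats, with its standard error (SE) after ±. Of 41012 probes, 28242 had a Cy5 signal clearly over background on 4 or more of the 29 arrays and were tested. The median Cy5 signal of the 9 fed arrays lay between 107 and 154 units, and 58.8% to 66.7% of their spots were well above background. All 19 tested T cell markers, all 11 B cell markers, all 13 NK cell markers and 14 of 16 monocyte markers were well above background on all 9 fed arrays, which is what the label mononuclear cells asks for. So were all 19 platelet markers and 15 of 17 erythroid markers. Mean correlations of single fed arrays with the other arrays of their own group (0.162 to 0.274) overlapped with those against the other diet (0.0881 to 0.305). The number of arrays limits the precision, with a median SE of 0.0856 over all probes.

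Cpt1a, which encodes the liver-type carnitine palmitoyltransferase of the outer mitochondrial membrane, rose in cafeteria fed rats. It was the 1 probe called at an adjusted p under 0.05, which is 0.00354% of those tested. Control fed rats 1, 4, 7 and 13 stood at -0.35, -0.24, -0.52 and -0.54, and cafeteria fed rats 1, 4, 7, 10 and 13 at 0, 0.22, 0.01, 0.27 and 0.11. All 5 cafeteria rats lay above all 4 control rats. The means were -0.41 ± 0.145 (SD, n = 4) and 0.12 ± 0.12 (SD, n = 5). The log2 difference was 0.53 ± 0.081, a 1.45-fold rise with a 95% interval of 0.36 to 0.70 (limma, Benjamini-Hochberg adjusted p = 0.0159). The array has 1 probe for Cpt1a, at chr1:205912066-205912125 of the rn4 build, and it was well above background on all 29 arrays. After background correction and before any normalization, the log2 Cy5 signal of that probe ran from 9.97 to 10.61 in control fed rats. It ran from 11 to 11.77 in cafeteria fed rats, again without overlap.

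**Figure D1:**
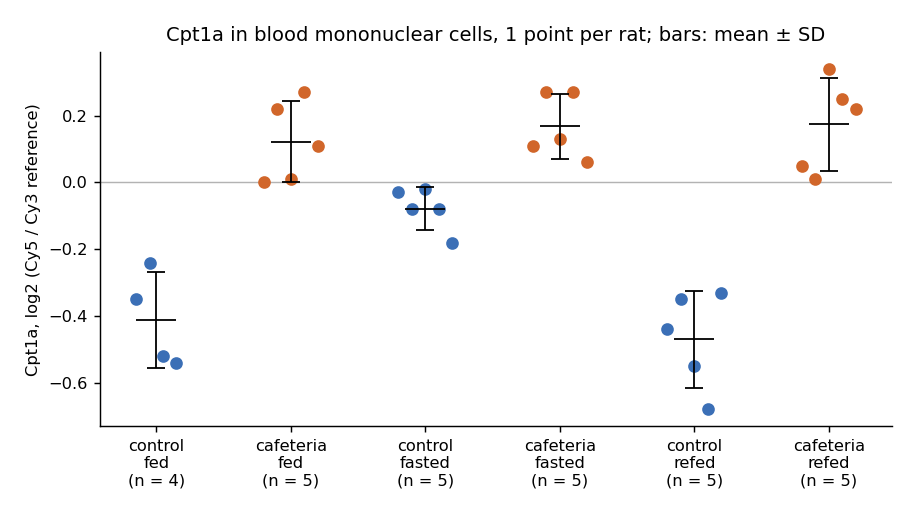
Cpt1a log2 ratio over the pooled reference in each of the 29 rats, by group, with control rats in blue and cafeteria rats in orange, and with the group mean and SD as bars. The 4 control fed rats lie between -0.54 and -0.24, below the 5 cafeteria fed rats between 0 and 0.27.

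The other feeding states, which share no rat with the fed groups, place the fed difference. Control rats stood at -0.08 ± 0.0636 after the fast and at -0.47 ± 0.146 after refeeding (SD, n = 5 each), and cafeteria rats at 0.17 ± 0.0939 and 0.18 ± 0.14 (SD, n = 5 each). The 3 control means spanned -0.47 to -0.08, and the 3 cafeteria means 0.12 to 0.18. The diet difference in Cpt1a was 0.25 ± 0.077 in fasted and 0.65 ± 0.077 in refed rats. The fed difference minus the fasted one was 0.28, and minus the refed one -0.11. Neither interaction passed (limma, adjusted p = 1 in both; unadjusted p = 0.0174 and 0.318).

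The call of Cpt1a rested on the spread shared by all 29 arrays. With the 9 fed arrays alone its difference was again 0.53, at an adjusted p of 0.468, and with slide as a block it was 0.56 (adjusted p = 0.0909), with median centring of the arrays in place of loess 0.63 (adjusted p = 1). The call was also lost without control fed rat 7 (adjusted p = 0.0515) or 13 (0.0507) and without cafeteria fed rat 4 (0.0503), 10 (0.102) or 13 (0.0545), with differences of 0.49 to 0.54. Among arrays put through the image extraction software on the latest date in the file headers, 4 cafeteria and 2 control fed, the difference was 0.54. Among those extracted earlier, 1 cafeteria and 2 control fed, it was 0.59. On the slides that carried 1 fed array of each diet it was 0.35 and 0.81, each a single rat minus a single rat.

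For reference, the RefSeq table of the GRCr8 build gives these 250 bases before the annotated start of Cpt1a, at chr1:209995910-209996159 on the plus strand, shown because Cpt1a is the called gene.
Cpt1a: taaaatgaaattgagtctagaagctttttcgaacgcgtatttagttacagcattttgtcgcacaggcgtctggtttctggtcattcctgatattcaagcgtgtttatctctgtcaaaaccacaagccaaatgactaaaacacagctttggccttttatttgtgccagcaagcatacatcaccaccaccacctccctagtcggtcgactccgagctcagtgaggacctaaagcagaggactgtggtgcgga
Both strands were searched for AGGTCA, the core element bound by nuclear receptors such as the PPARs, which 14.1% of 33469 RefSeq windows of the same length hold. The search also took in the CCAAT box, found in 34% of those windows, the GC box GGGCGG that binds SP1, found in 30.5%, and the TATA box in the form TATAAA, found in 12.9%. No such match lies in the Cpt1a window, hence no letters are in capitals. The absence of a match says only that these letters are not in this window, and the arrays carry no measurement at the promoter.

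The other genes of fatty acid oxidation were described as a list of 34 genes, of which 32 were tested. Cpt1a was the 1 member called, 22 of 32 differences lay above 0, and their median was 0.05, against 53.9% above 0 and a median of 0.0077 over all probes. Of the 5 carnitine shuttle genes, the carrier Slc25a20 came next after Cpt1a. It stood at -0.24, -0.13, -0.14 and -0.47 in control fed rats 1, 4, 7 and 13 and at -0.12, 0.01, -0.03, 0.15 and 0.04 in cafeteria fed rats 1, 4, 7, 10 and 13. The highest control rat (-0.13) lay just below the lowest cafeteria rat (-0.12), and the difference of 0.26 ± 0.099 did not pass (adjusted p = 0.866). Differences were 0.068 ± 0.13 for Cpt2, the transferase of the inner membrane, 0.036 ± 0.12 for Cpt1b, the muscle-type isoform, and -0.045 ± 0.088 for Crat, which handles short acyl groups (adjusted p = 1 for each). These genes beside Cpt1a, and the 4 named in the next paragraph, were picked for naming after their values were seen.

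The 13 mitochondrial beta-oxidation enzymes ranged from -0.30 to 0.32, with 10 above 0 and none called. Acaa2, the last thiolase of the spiral, had the highest value (0.32 ± 0.19, adjusted p = 1), and Decr1, which prepares unsaturated acyl chains, the lowest (-0.30 ± 0.13, adjusted p = 0.967). Acadm, the medium-chain dehydrogenase, differed by 0.14 ± 0.078 (adjusted p = 1). The 3 peroxisomal genes lay between -0.044 and 0.038. Among other PPAR targets, Angptl4, an inhibitor of lipoprotein lipase, differed by 0.22 ± 0.11 (adjusted p = 1), with cafeteria rats from 0 to 0.40 and control rats from -0.23 to 0. The Ppara probe itself was well above background on 0 of 4 control fed and 2 of 5 cafeteria fed arrays, so no level is given, and Pdk4, a PPAR target that restrains glucose oxidation, did not pass the filter. Averaged over the 31 tested members other than Cpt1a, the log2 ratio was -0.0086, -0.028, -0.006 and -0.011 in control fed rats 1, 4, 7 and 13 and 0.062, -0.013, 0.032, 0.054 and 0.022 in cafeteria fed rats 1, 4, 7, 10 and 13. Cafeteria rat 4 lay within the control range, and the other 4 cafeteria rats lay above it.

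**Figure D2:**
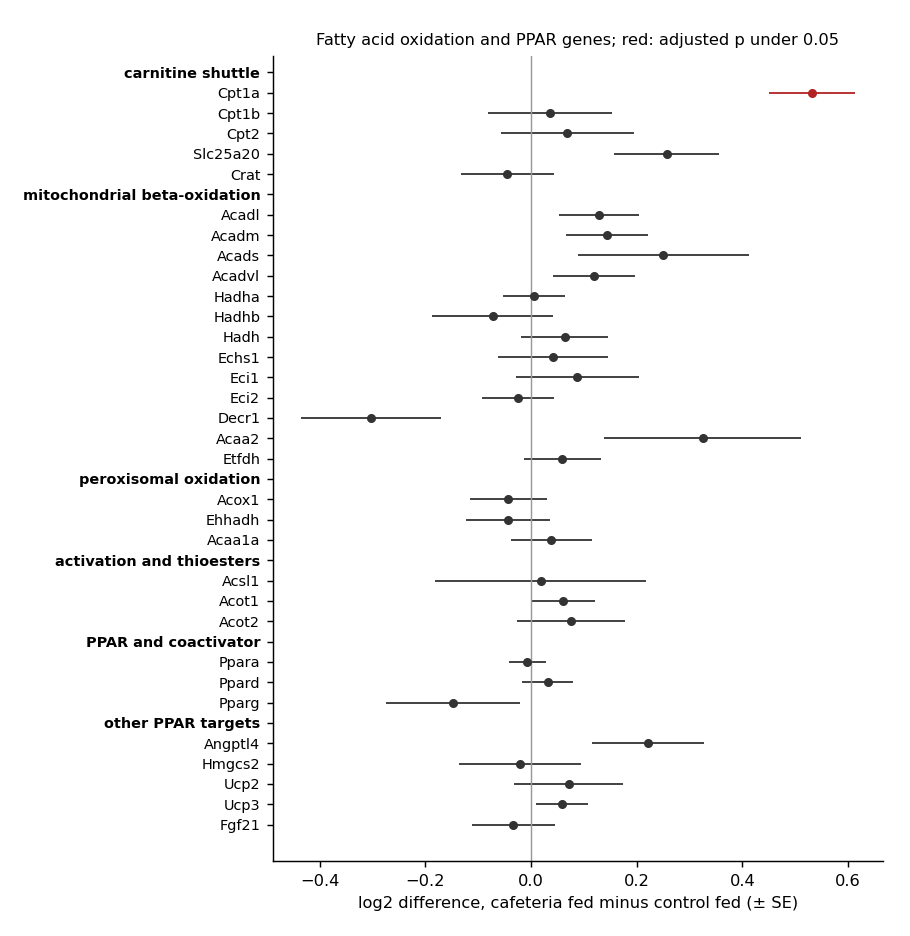
Log2 difference between cafeteria fed and control fed rats, with its SE, for the 32 tested genes of fatty acid oxidation and PPAR signalling, grouped by role. Cpt1a, in red, stands at 0.53, and the other 31 lie between -0.30 and 0.32.

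Fatty acid uptake gave the difference of greatest size and one of the least steady. Slc27a2, which encodes a very-long-chain acyl-CoA synthetase that also takes up fatty acids, stood at -0.32, -4.14, -4.76 and -4.85 in control fed rats 1, 4, 7 and 13 and at 0.96, 0.48, 1.38, 0.10 and 0.49 in cafeteria fed rats 1, 4, 7, 10 and 13. All cafeteria rats were above all control rats, but control rat 1 stood far from the other 3. The difference was 4.20 ± 1.4 (adjusted p = 0.69), with 3.15 from a second probe. It was -0.83 in fasted and -1.92 in refed rats, where single rats ranged from -4.86 to 1.61. Low values occurred there under both diets. Control fasted rat 5 stood at -4.77, and control refed rats 12 and 15 at -4.65 and -3.99. Cafeteria fasted rats 8 and 11 stood at -4.86 and -4.26, and cafeteria refed rats 3, 6 and 12 at -4.85, -4.51 and -4.86. The other fasted and refed rats lay between -2.04 and 1.61. Each mean difference thus depends on how many rats stood at the low level. Of the 15 tested uptake and storage genes, 11 lay above 0 with a median of 0.083 and none was called. Cd36, a fatty acid translocase, differed by 0.13 ± 0.24 (adjusted p = 1).

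A fixed set of 20 nutrient-regulated and inflammatory genes, of which 19 were tested, showed no called difference beside Cpt1a. Without Cpt1a and Slc27a2 the other 17 ranged from -0.61 to 0.21 with a median size of 0.077. Both ends of this range belong to inflammatory genes, the lower one to Il1b. The 17 also count the dim Ppara probe. Srebf1, the insulin-driven activator of lipid synthesis, differed by -0.18 ± 0.12, Fasn, fatty acid synthase, by -0.055 ± 0.081, and Scd, a desaturase, by 0.077 ± 0.15 (adjusted p = 1 for each). The 2 other Srebf1 probes gave -0.091 and 0.026. Ucp2, an inner-membrane carrier, differed by 0.071 ± 0.10, and Txnip, a glucose-induced inhibitor of thioredoxin, by 0.16 ± 0.18 (adjusted p = 1 for each). Srebf2, the activator of sterol synthesis, differed by -0.35 ± 0.11 (adjusted p = 0.632). Its second probe gave 0.026. The 27 tested genes of sterol synthesis and uptake had 16 above 0 and a median of 0.018, and the 20 lipogenic genes 10 above 0 and a median of 0.0011. In the lipogenesis list Mlxipl, a glucose-responsive transcription factor, differed by 0.23 ± 0.11 (adjusted p = 1), of which cafeteria rat 7 gave 0.86 while the other 4 lay between -0.01 and 0.08. The 24 glycolysis genes had 12 above 0 and a median of -0.018. Ldhb, a lactate dehydrogenase subunit, had the highest difference there (1.30 ± 0.8, adjusted p = 1), with control rats from -2.46 to 0.33 and cafeteria rats from -2.19 to 0.43.

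Below the threshold, most of the genes with small p-values were lower in cafeteria fed rats. Without adjustment, 1375 probes (4.87%) had a p under 0.05, of which 506 (1.79%) were higher and 869 (3.08%) lower. The values of the groups did not overlap for 343 probes (1.21%), 122 (0.432%) with cafeteria rats higher and 221 (0.783%) with cafeteria rats lower. At an adjusted p under 0.1 there were 8 probes, 7 of them lower. By rule, the 24 genes with a symbol and the smallest p were named, of which 3 were higher and 21 lower, with 18 showing no overlap between the diets. Apart from Cpt1a none of them passed, and since small p-values chose them, their size in fed rats is a description.

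**Figure D3:**
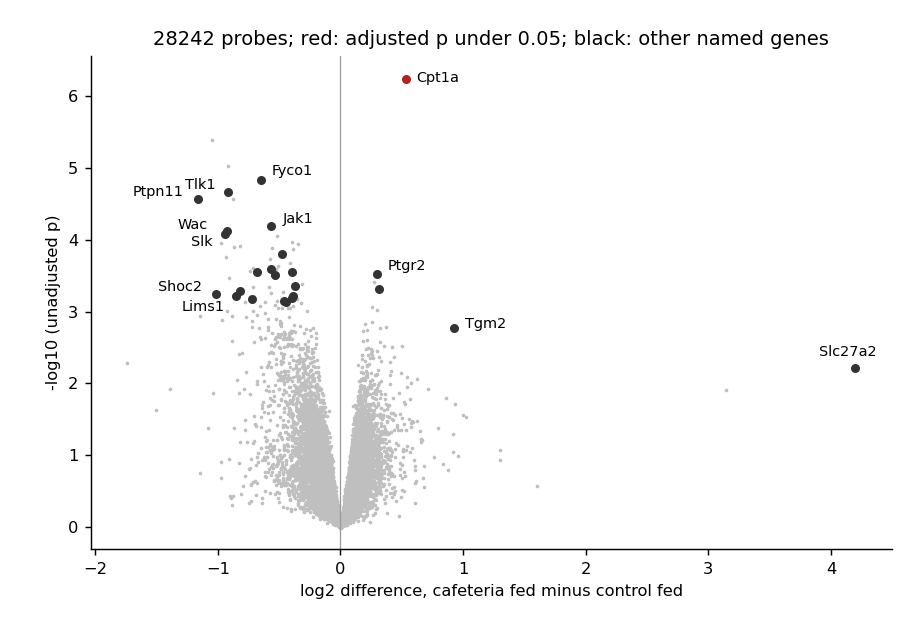
Log2 difference (cafeteria fed minus control fed) on the x axis against -log10 of the unadjusted p on the y axis for 28242 probes in grey, with Cpt1a in red and, in black, 22 others of the 24 genes with the smallest p together with Tgm2 and Slc27a2. Of the 23 genes so marked from the 24, 20 lie to the left of 0.

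The genes are given by their known roles, and no role was tested as a group. Ptpn11, the phosphatase SHP2 that links growth factor and cytokine receptors to RAS, stood at 0.18, 1.28, 0.16 and 0.55 in control fed rats 1, 4, 7 and 13 and at -0.30, -0.73, -0.93, -0.30 and -0.83 in cafeteria fed rats 1, 4, 7, 10 and 13. The groups did not overlap, and the difference was -1.16 ± 0.23 (adjusted p = 0.0962), with -0.97 from a second probe. Shoc2, a scaffold that promotes RAF activation downstream of RAS, stood at 0.20, 0.70, 0.99 and 0.37 in control and 0.28, -0.40, -0.35, -1.14 and -0.62 in cafeteria rats, in the same order. Cafeteria rat 1 lay among the controls, and the difference was -1.01 ± 0.26 (adjusted p = 0.353). Jak1, a kinase bound to cytokine receptors, was 0.26 to 0.55 in control and -0.46 to 0.16 in cafeteria rats, without overlap (-0.56 ± 0.12, adjusted p = 0.197, and -0.88 from its second probe). Pip4k2a, a phosphoinositide kinase, differed by -0.54 ± 0.13 (adjusted p = 0.256), with -0.15 from its second probe. Over the whole list of insulin, leptin and FOXO signalling, 25 genes were tested, none was called, 10 lay above 0 and the median was -0.022. Of these 25 genes 4 had an unadjusted p under 0.05, all lower, where 3.08% of all probes were lower at that threshold. Among the 4 were Ptpn11 and Shoc2, which small p-values had chosen.

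Slk, a STE20-like kinase of the cytoskeleton, stood at 0.84, 0.69, 0.80 and 0.36 in control fed rats 1, 4, 7 and 13 and at 0.13, -0.27, -0.38, -0.41 and -0.32 in cafeteria fed rats 1, 4, 7, 10 and 13. Tlk1, a kinase of chromatin assembly, stood at 0.19, 1.24, 0.41 and 0.14 in control and at -0.30, -0.08, -0.64, -0.65 and -0.42 in cafeteria rats. Neither gene overlapped between the diets. The differences were -0.92 ± 0.20 for Slk (adjusted p = 0.197) and -0.91 ± 0.18 for Tlk1 (adjusted p = 0.0962), but the second and dimmer Tlk1 probe gave 0.008. Wac, an adaptor for ubiquitination of histone H2B, differed by -0.94 ± 0.20 (adjusted p = 0.197, no overlap), with -0.13 from its second probe. Csnk1a1, a casein kinase of the Wnt pathway, differed by -0.72 ± 0.19 and Nap1l4, a histone chaperone, by -0.45 ± 0.12 (adjusted p = 0.362 for both), and the second Csnk1a1 probe gave -0.51. Over the list of chromatin modifiers, 18 genes were tested, none was called, 8 lay above 0 and the median was -0.049. Its lowest member was Atrx, a chromatin remodeller that is not among the 24 (-0.62 ± 0.17, adjusted p = 0.415), with -0.22 from its second probe. Over the list of splicing factors and RNA helicases, to which Wac was assigned, 23 genes were tested, none was called, 19 lay above 0 and the median was 0.10. Ddx6, a helicase of mRNA decay in that list and also not among the 24, differed by -0.64 ± 0.22 (adjusted p = 0.677), with -0.36 and -0.062 from its 2 other probes.

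Fyco1, an adaptor that moves autophagosomes along microtubules, stood at 0.37, 0.29, -0.11 and 0.04 in control fed rats 1, 4, 7 and 13 and at -0.41, -0.23, -0.65, -0.64 and -0.59 in cafeteria fed rats 1, 4, 7, 10 and 13. All cafeteria rats were below all control rats, by -0.65 ± 0.12 (adjusted p = 0.0932). Of 23 alternative settings, Fyco1 passed in 3 and did not pass in the other 20. It passed with the scanner's own processed signals (-1.04, adjusted p = 0.0157) and without background correction (-0.89, adjusted p = 0.0174). The third was a fit with the mean of platelet markers as a covariate. Differences were -0.57 ± 0.13 for Ap3d1, a subunit of an adaptor complex of lysosomal sorting, and -0.48 ± 0.11 for Ddrgk1, a protein of the endoplasmic reticulum (adjusted p = 0.252 and 0.212). Lims1, a focal adhesion adaptor, differed by -0.85 ± 0.22 (adjusted p = 0.36) and Dnajb6, a co-chaperone, by -0.39 ± 0.094 (adjusted p = 0.252), while their second probes gave 0.13 and 0.058. The other genes were Ranbp6 (-0.68 ± 0.16), Rbm22 (-0.37 ± 0.092), Ppil4 (-0.82 ± 0.21), Megf9 (-0.38 ± 0.099), Camsap1 (-0.40 ± 0.10) and Sass6 (-0.46 ± 0.12). They encode an importin family member, a splicing factor, an RNA-binding prolyl isomerase, a membrane protein, a protein of microtubule ends and a centriole component, in that order, and their adjusted p-values lay between 0.252 and 0.362. The second probe gave -0.11 for Ranbp6 and -0.18 for Sass6. Of the 24 genes, 11 had another tested probe, and for 3 of these it had the opposite sign.

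Beside Cpt1a, Ptgr2 and Nnt were the genes of the 24 with higher values. Ptgr2, a prostaglandin reductase, stood at -0.15, -0.07, 0.09 and -0.16 in control fed rats 1, 4, 7 and 13 and at 0.29, 0.14, 0.14, 0.29 and 0.26 in cafeteria fed rats 1, 4, 7, 10 and 13. Nnt, the mitochondrial transhydrogenase that makes NADPH, stood at -0.21, -0.27, -0.05 and -0.47 in control and 0.08, -0.04, 0.16, 0.17 and -0.04 in cafeteria rats. Neither gene overlapped between the diets. The differences were 0.30 ± 0.071 for Ptgr2 (adjusted p = 0.254) and 0.32 ± 0.079 for Nnt (adjusted p = 0.322), whose other 2 probes gave 0.21 and 0.32. In fasted and refed rats Ptgr2 differed by 0.19 and 0.34 and Nnt by 0.059 and 0.045. Over the antioxidant and NRF2 list, which holds neither gene, 24 genes were tested, none was called, 13 lay above 0 and the median was 0.015.

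The diet differences of fasted and refed rats were set beside those of fed rats. All 24 genes had the same sign in fasted and in refed rats as in fed rats, against 62.8% and 55.4% of all probes. Most probes lay near 0 in fed rats (quartiles -0.053 and 0.063), so these shares are not those of probes with differences of like size. For Ptpn11, Slk, Wac, Ppil4, Shoc2 and Csnk1a1 the difference was -0.72 or below in all 3 states, whereas Lims1 stood at -0.85 fed, -0.98 fasted and -0.046 refed. No probe passed for a diet difference that itself differed between fed and fasted or between fed and refed rats (limma, smallest adjusted p = 0.823 and 1), with 907 and 865 probes at an unadjusted p under 0.05 (3.21% and 3.06%). Among genes with a symbol, the smallest interaction p-values included those of Rpgrip1, Tk2 and Popdc2. Rpgrip1 differed by 0.22 in fed, -0.47 in fasted and 0.092 in refed rats, Tk2, a mitochondrial thymidine kinase, by 0.29, 0.27 and -0.43, and Popdc2 by -0.15, 0.11 and 0.74 in the same order (interaction adjusted p = 1 for each).

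**Figure D4:**
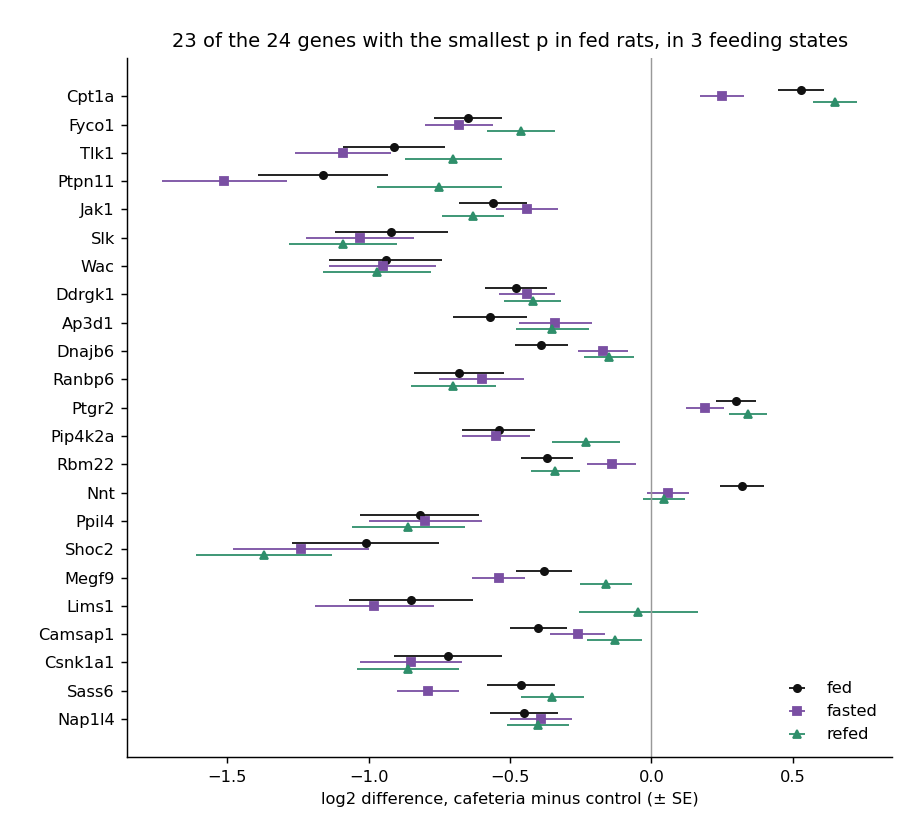
Log2 difference between cafeteria and control rats, with its SE, for 23 of the 24 genes with the smallest p in fed rats, shown for fed rats (circles), fasted rats (squares) and refed rats (triangles). All 23 genes lie on the same side of 0 in the 3 states, and Lims1 comes nearest to 0 in refed rats at -0.046.

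A group of 5 probes that share 1 sequence tag has no gene symbol in the table used. It was picked for description after its values were seen, since 2 of its probes had the smallest p after that of Cpt1a. The rn4 positions in the scanner files place 3 of them between bases 1289 and 1613 of the mitochondrial chromosome, and the other 2, which carry the same sequence tag, have no position there. The difference of greatest size in this group was -1.05 ± 0.18 (adjusted p = 0.0567), from 1.13, 0.96, 1.24 and 0.78 in control fed rats 1, 4, 7 and 13 to 0.10, 0.18, -0.13, -0.10 and -0.15 in cafeteria fed rats 1, 4, 7, 10 and 13. All 5 probes separated the diets without overlap, with differences from -1.05 to -0.45. The 2 without a position gave -1.05 and -0.92, and the 3 on the mitochondrial chromosome -0.74 to -0.45. Since the 5 share a tag they are not independent measures, and whether they all read 1 transcript was not tested. A further probe, at bases 1284 to 1346 and thus over nearly the same bases as the tag probe at 1289 to 1348 (-0.45), is listed under another tag and gave -0.21 (adjusted p = 1) with overlap between the diets. Differences of the 5 probes were -1.52 to -0.58 in fasted and -1.13 to -0.50 in refed rats. The 46 tested probes of the mitochondrial chromosome outside this tag had a median of -0.032 in fed rats, with 24 of 46 below 0. Some of them, nearer the start of that chromosome, had fed differences within the range of the tag, but with overlap between the diets. Those at bases 154 to 212, 465 to 524 and 485 to 544 gave -0.52, -0.60 and -0.61 in fed rats. They gave -1.16, -1.40 and -1.36 in fasted and -0.19, -0.30 and -0.32 in refed rats. The probe at bases 516 to 575 gave -0.22 in fed rats. In fasted rats 40 of these 46 were below 0 (median -0.082), and in refed rats 34 (median -0.059). With the 9 fed arrays alone, 2 of these 5 probes were the 2 probes called, and Cpt1a was not. With the scanner's processed signals 4 probes were called, 1 higher and 3 lower. Without background correction 7 were called, 2 higher and 5 lower, and both sets held 2 probes of this tag.

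A set of 10 genes taken from earlier diet results on these same arrays, and so no independent support, had no called member. At an unadjusted p under 0.05, 1 gene was higher and 6 were lower, where 1.79% and 3.08% of all probes were. Tgm2, a transglutaminase, stood at -0.94, -0.23, -0.28 and -0.85 in control fed rats 1, 4, 7 and 13 and at 0.23, 1.04, 0.09, 0.44 and -0.02 in cafeteria fed rats 1, 4, 7, 10 and 13. The groups did not overlap, and the difference was 0.93 ± 0.27 (adjusted p = 0.513). Arg1, arginase, differed by 0.23 ± 0.14, Pon3, a lactonase, by 0.29 ± 0.19 and Tgfa, a growth factor, by -0.11 ± 0.16 (adjusted p = 1 for each). In refed rats these 4 genes differed by 1.20, 0.71, 0.83 and 0.32, in the order Tgm2, Arg1, Pon3 and Tgfa. Inflammatory cytokines were not called. Ccl2, a monocyte chemokine, differed by -0.79 ± 0.29 (adjusted p = 0.811), Il1b by -0.61 ± 0.29 (adjusted p = 1) and Cxcl2, a neutrophil chemokine, by -0.97 ± 0.75 (adjusted p = 1). Cxcl2 spanned -4.06 to 0.99 among the 5 cafeteria rats, and 12 of 26 cytokine genes lay above 0 with a median of -0.0058.

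Markers of single blood cell types were set beside these results. T cell markers were below 0 in 17 of 19 genes with a median of -0.13, B cell markers above 0 in all 11 with a median of 0.18, and NK cell markers above 0 in 12 of 13 with a median of 0.33. None was called. At an unadjusted p under 0.05, 4 T cell markers were lower, where 3.08% of all probes were. At that threshold 2 B cell markers and 1 NK cell marker were higher, where 1.79% of all probes were. The medians in fasted and refed rats were -0.0086 and -0.091 for T cells, 0.12 and 0.21 for B cells, and 0.0098 and -0.48 for NK cells. The mean of the T cell list ran from -0.26 to 0.11 in control and from -0.43 to 0.078 in cafeteria fed rats, that of the B cell list from -0.22 to 0.17 and from -0.20 to 0.34, and that of the NK list from -0.47 to -0.094 and from -0.19 to 0.58. Every one of these ranges overlapped between the diets. Bcl11b, a transcription factor of T cells, differed by -0.51 ± 0.15 (adjusted p = 0.521, and -0.17 from its second probe), Cd3e, a chain of the T cell receptor complex, by -0.46 ± 0.17 (adjusted p = 0.813), Blk, a B cell kinase, by 0.36 ± 0.17 and Ncr1, an NK receptor, by 0.49 ± 0.23 (adjusted p = 1 for both). Gzma, a granule protease, differed by 0.44 ± 0.40 and Cd72, a B cell coreceptor, by 0.41 ± 0.23 (adjusted p = 1 for both).

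Monocyte and neutrophil lists had medians of -0.027 and -0.064, with 6 of 16 and 4 of 14 genes above 0, up to 0.21 and 0.37. The 2 members of greatest size in each list were lower. Cd14 differed by -0.50 ± 0.38 and Vcan by -0.43 ± 0.31 among monocyte genes, and Retnlg by -0.51 ± 0.43 and S100a8 by -0.41 ± 0.51 among neutrophil genes (adjusted p = 1 for each). Cd14 spanned -1.55 to 0.82 among the cafeteria fed rats. Other probes gave -0.12 for Cd14 and -0.089 and -0.077 for S100a8. Platelet markers were above 0 in 1 of 19 genes, with a median of -0.26, and none of them was at an unadjusted p under 0.05. F13a1, a clotting factor subunit, differed by -0.65 ± 0.36 and Rgs18, a platelet signalling regulator, by -0.47 ± 0.30 (adjusted p = 1 for both). The mean of that list was -0.23, 0.91, -0.37 and 0.23 in control fed rats 1, 4, 7 and 13 and -0.58, -0.13, -0.73, 0.46 and 0.21 in cafeteria fed rats 1, 4, 7, 10 and 13, so it varied more within each diet than between them. When it entered the fit as a covariate, Cpt1a differed by 0.56 (adjusted p = 0.00646), and 61 of 28242 probes were called, 1 higher and 60 lower. Among the 24 genes 15 then passed, with Ptpn11 at -1.12 (adjusted p = 0.035), Wac at -1.02 (adjusted p = 0.024) and Ranbp6 at -0.79 (adjusted p = 0.0153, for the brighter of its 2 probes). The 24 were chosen for small p in this same comparison, so a fit that calls more probes calls them readily. The count of 15 is therefore no added support for them. Erythroid markers were above 0 in 11 of 17 genes with a median of 0.27, and their mean ran from -0.55 to -0.26 in control and from -0.43 to -0.07 in cafeteria rats. Ahsp, which stabilises alpha globin, ran from -1.72 to -0.78 in control and from -0.64 to 0.13 in cafeteria rats (1.02 ± 0.44, adjusted p = 0.961), and the difference of Hbb-b1, a beta globin, was 0.84 ± 0.54 (adjusted p = 1). The part of the T, B, NK and erythroid shifts in the other differences was not tested.

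**Figure D5:**
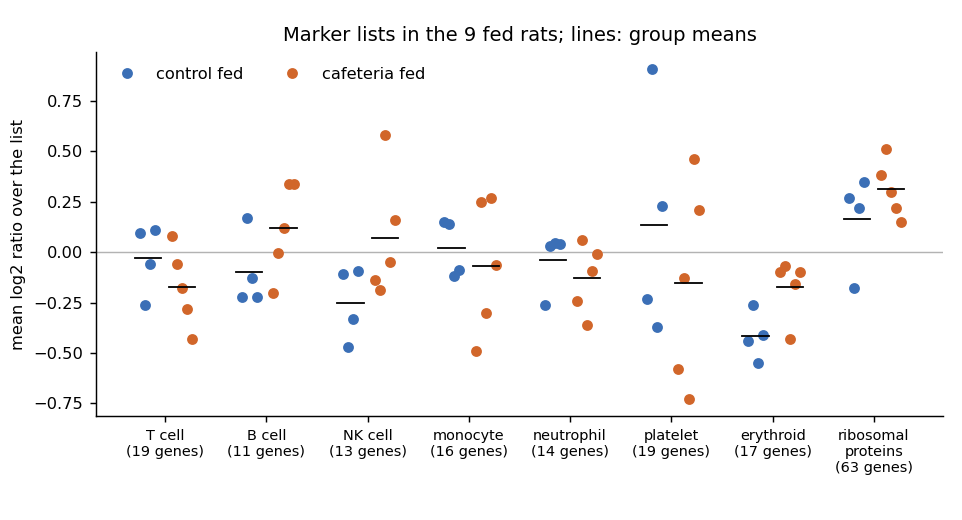
Mean log2 ratio over each marker list in the 4 control fed rats (blue) and 5 cafeteria fed rats (orange), with group means as lines. The diets overlap in every list shown, and the platelet list spans -0.37 to 0.91 in control and -0.73 to 0.46 in cafeteria rats.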

How the data were processed

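RNA of blood mononuclear cells was measured in 29 rats on 2-colour Agilent rat arrays. Per the labels, the RNA of each rat carried Cy5, and the Cy3 channel held a pool of all groups. Spot and local background intensity came from deposited scanner output of Agilent Feature Extraction 9.5.1.1, with rn4 positions, per the file headers. The authors' deposited value table, on a log2 scale by its slope on the scanner's Cy5 signal, served as an alternative, since how it was normalized is not given in the sources used here.

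With R 4.3.3, limma 3.58.1 and data.table (version 1.17.8), background was corrected (normexp, offset 50) and log2 ratios were normalized by loess within arrays, with outlier spots left out. Symbols came from accessions and names in RefSeq for GRCr8, and 19548 of 41012 probes had one. A gene was its brightest kept probe. All 29 arrays of 6 groups entered a single limma fit, with 2-sided p-values adjusted by Benjamini-Hochberg over 28242 probes, and the step was tested on simulated data. Samples of a group are taken as separate rats from their numbers in the labels, so p-values measure the spread between them, which may be technical in part. Same-numbered fed rats of both diets did not deviate together (correlations from -0.145 to 0.114), so numbers were not used to pair rats. Figures were drawn with Python 3.11.15 and matplotlib 3.10.9.

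The members, gene lists and naming rule were chosen with earlier results of these data known, and the text names part of these genes. The rule took the called genes and then those of smallest p up to 24. From each list it took the called members or, without any, the 2 with the greatest difference. It also took a fixed set of metabolic and inflammatory genes, the earlier diet genes and the 3 smallest interaction p-values. Of the 24 genes, 1 is not reported here by name.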

Additional observations from a re-analysis of the deposited data

Results flagged for a closer look

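In 186 groups of values (the named genes, 3 array measures and 14 gene list means, each in control fed and in cafeteria fed rats), 12 had 1 rat far from the rest of its group, where chance gives about 1 group in 20. Among control fed rats, Slc27a2 was -0.32 in rat 1 against -4.85 to -4.14 in the others, Tgfa 0.81 in rat 7 against 0.05 to 0.14, Blk -0.04 in rat 4 against -0.54 to -0.47, and Rpgrip1 -0.10 in rat 13 against 0 to 0.02. The neutrophil marker mean was -0.26 in control fed rat 1 against 0.029 to 0.043. Among cafeteria fed rats, Slk was 0.13 in rat 1 against -0.41 to -0.27, Cpt2 0.72 in rat 1 against 0.04 to 0.20, Calr, an ER chaperone, -0.19 in rat 4 against -0.70 to -0.58, Ldhb -2.19 in rat 4 against -0.09 to 0.43, and Mlxipl 0.86 in rat 7 against -0.01 to 0.08. The erythroid marker mean was -0.43 in cafeteria fed rat 7 against -0.16 to -0.07. The array of cafeteria fed rat 13 had 329 outlier spots against 162 to 192 on the others of its group. Cpt1a was not among these values in either diet.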

How the results depend on the processing

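Cpt1a was higher in cafeteria fed rats in all 23 alternatives run (0.49 to 0.76, adjusted p from 0.000357 to 1). In the authors' deposited table, where the median difference of all probes was 0.13, it was 0.76. The number of called probes was 1 in the main fit, 4 with processed signals, 7 without background correction, 2 with the fed arrays alone and 61 with the platelet mean as a covariate. It was 0 with median centring (396 probes at an unadjusted p under 0.05 in limma) and 0 with the replicate block on rat number (1351 probes, Cpt1a 0.49 at an adjusted p of 0.187), although the numbers do not pair the rats. No control fed rat has the number 10, so that block takes cafeteria fed rat 10 out of the fed difference, as leaving it out does. With slide as a block 1 probe was called, a probe of the sequence tag above, without a position, in place of Cpt1a. Leaving out 1 fed rat gave 0 to 1 called probes, with 958 to 1822 at an unadjusted p under 0.05. The interaction counts were 0 in every alternative in which they were run. Of 76 named genes, 67 kept their direction throughout. Under the authors' table Fasn turned to 0.088 and Crat to 0.018. With the replicate block Cd36 turned to -0.00015, the same value as without cafeteria fed rat 10. Leaving out 1 fed rat moved Cd36 between -0.00015 and 0.25, Cpt1b between -0.033 and 0.11, Cpt2 between -0.052 and 0.12, Crat between -0.096 and 0.00062, Scd between -7e-04 and 0.20, Tgfa between -0.19 and 0.075, Txnip between -0.015 and 0.25 and Ucp2 between -0.059 and 0.17. The cause of these shifts was not tested. With 4 and 5 rats, and a median SE of 0.0856, differences of the size most probes show cannot be called.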

Other observations

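Ribosomal protein genes were above 0 in 57 of 63 tested members, with a median of 0.13 in fed, 0.096 in fasted and -0.12 in refed rats. None was called, and 9 of the 63 had an unadjusted p under 0.05, all higher, where 1.79% of all probes were higher at that threshold. Rpl7 differed by 0.40 ± 0.16 (adjusted p = 0.928) and Rpl13 by 0.88 ± 0.61 (adjusted p = 1), both proteins of the large subunit, and the second Rpl13 probe gave 0.16. The list mean was 0.27, -0.18, 0.22 and 0.35 in control fed rats 1, 4, 7 and 13 and 0.38, 0.51, 0.30, 0.22 and 0.15 in cafeteria fed rats 1, 4, 7, 10 and 13, so the diets overlapped and control rat 4 was the lowest. Proteasome genes were above 0 in 23 of 30 members with a median of 0.059, and nuclear-encoded respiratory chain genes in 36 of 52 with a median of 0.036, with none called in either list.

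Protein folding genes of the endoplasmic reticulum had 9 of 20 members above 0 and a median of -0.018. At an unadjusted p under 0.05, 2 of the 20 were lower, where 3.08% of all probes were. Calr, the chaperone calreticulin, stood at 0.75, 0.34, 0.02 and -0.19 in control fed rats 1, 4, 7 and 13 and at -0.62, -0.19, -0.58, -0.70 and -0.69 in cafeteria fed rats 1, 4, 7, 10 and 13, a difference of -0.78 ± 0.20 (adjusted p = 0.362), with -0.96 in fasted and -0.72 in refed rats. Atf6, a sensor of misfolded protein, differed by -0.34 ± 0.15 (adjusted p = 0.967). Plasma cell markers were below 0 in all 7 tested members with a median of -0.064, and Tnfrsf17, a plasma cell receptor, differed by -0.50 ± 0.65 (adjusted p = 1). Hsp90ab1, a cytosolic chaperone, differed by -0.64 ± 0.26 (adjusted p = 0.928) without overlap between the diets, while its second probe gave 0.053. In the Toll-like receptor and NF-kB list, Nfkb2 differed by 0.28 ± 0.10 (adjusted p = 0.782) and by 0.026 on its second probe, with 14 of 27 members above 0.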
